A study of Mus musculus with 42 samples.

Results

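The steady-state mRNA of macrophages lacking tristetraprolin (TTP) was compared with that of wild-type (WT) macrophages after 6 h of lipopolysaccharide (LPS), without actinomycin D. These are 6 of the 42 libraries of the series, 3 per genotype, and they were chosen by genotype, LPS time and the absence of actinomycin D. The cells were mouse bone marrow-derived macrophages, grown with CSF-1 from the marrow of animals 7 to 9 weeks old on a C57BL/6 background. The ΔM group came from TTPΔM mice, labelled TTP-/-, in which LysM-driven Cre removes Zfp36 (the gene for TTP) from myeloid cells only, and the WT group from littermates. Both groups received LPS, the cell wall component of Gram-negative bacteria, at 10 ng/ml. The same genotypes without LPS and at 3 h of LPS serve below for comparison, as do the 6 h cultures that were given 5 µg/ml actinomycin D, which stops transcription, for 45 or 90 min. The level of a gene is given as FPKM (fragments per kilobase of transcript, scaled to the mapped fragments of the library). The tables used hold 1 FPKM value per group, without the values of the 3 replicates, so the spread between replicates and the depth of each library are unknown and no test of a difference was possible. A gene was therefore called by size alone, as higher or lower in ΔM when log2((ΔM + 1)/(WT + 1)), the log2 ratio, was at least 1 or at most -1, a 2-fold rule. Of 21951 genes in the table, 10307 had a mean FPKM of WT and ΔM of at least 1 at 6 h and were compared.

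TTP is a zinc finger protein that LPS induces in macrophages. It binds AU-rich elements in 3′ untranslated regions, with UAUUUAU as its core sequence, and recruits the deadenylase complex that shortens the poly(A) tail, after which the mRNA is degraded. The mRNAs of TNF and of several chemokines are classical targets, and the loss of TTP prolongs their presence after an inflammatory stimulus. At 6 h of LPS the transient first wave of the response is declining, whereas anti-inflammatory and antimicrobial genes are still accumulating.

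The study crosslinked TTP to RNA in macrophages at the same LPS time and listed the 3′ UTR sites that TTP contacts. Of the genes with the highest log2 ratios, Plekhg2, Ifnb1 and Cxcl3 have no listed 3′ UTR site. For 10 of the mRNAs higher in ΔM, a window of up to 30 bases of the longest listed site is given below in DNA letters, 5′ to 3′, with mm9 (NCBIM37) coordinates, each found base by base in that genome and annotated as 3′ UTR. Capitals mark copies of TATTTAT, or of ATTTA in Cxcl1, whose longest listed site has no TATTTAT, and the longest listed Zfp36l2 site holds neither motif. In sites longer than 30 bases the window with the most bases of the motif was taken. The windows therefore favour the motif over the rest of the site. No window is shown for Il6, the 11th such mRNA, whose longest listed site has only 7 bases. Sites were chosen by length, and any other listed sites of these mRNAs are not shown. The last 3 lines show sites of the same kind in mRNAs that did not reach the 2-fold rule. All 3 hold TATTTAT, whereas the longest listed sites of other such mRNAs, among them Plaur, Cd274, Ccl2 and B2m, hold neither motif.
Cxcl2 (chr5:91334354-91334383, plus strand): attTATTTATctatgTATTTATTTATTTAT
Cxcl1 (chr5:91321675-91321697, plus strand): tttttattttacattaatATTTA
Il10 (chr1:132920951-132920980, plus strand): tcgtttgtacctctctccgaaaTATTTATt
Ccl3 (chr11:83461514-83461543, minus strand): tgtcatacttgtatttgtgacTATTTATtc
Il27 (chr7:133732599-133732626, minus strand): tttatttcttggaTATTTATTTATtttt
Mllt11 (chr3:95023916-95023945, minus strand): tttatctatctaTATTTATTTATTTATtta
Zfp36l2 (chr17:84584908-84584937, minus strand): ttttgttttttattattatttttattatta
Tnf (chr17:35336622-35336651, minus strand): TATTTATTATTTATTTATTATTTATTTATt
Gdf15 (chr8:73153379-73153398, minus strand): TATTTATatttgTATTTATt
Eno2 (chr6:124710770-124710799, minus strand): tTATTTATTTATTTATTTATTTATTTATtt
Il1a (chr2:129125838-129125867, minus strand): ctatgTATTTATaaataTATTTATgataat
Ptgs2 (chr1:151952920-151952949, plus strand): ctgaccaTATTTATTTATTTATgtgaagaa
Il1b (chr2:129190536-129190565, minus strand): taccTATTTATTTATgTATTTATtgattgg

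In WT cells Zfp36 itself stood at 118, 1017 and 1782 FPKM at 0, 3 and 6 h of LPS, and in ΔM cells at 5.98, 16.3 and 31.0. The targeted gene was thus the one with the lowest log2 ratio of all 10307 genes at 6 h (-5.80), with some signal left in ΔM. The gene with the highest log2 ratio, Plekhg2 (5.09), which encodes a guanine nucleotide exchange factor, is its neighbour. Plekhg2 lies on chromosome 7 from 28359603 to 28372681 and Zfp36 from 28376784 to 28379228 (GRCm38), 4.10 kb apart. Plekhg2 stood at 7.11, 16.0 and 26.5 FPKM in WT over 0, 3 and 6 h, and in ΔM at 77.0, 269 and 932. The difference was therefore present without LPS and widened with it, and Plekhg2 mRNA was stable in both genotypes at 6 h. The other 6 genes compared within 100 kb of Zfp36 had log2 ratios between -0.57 (Paf1) and 0.25 (Rps16, which has processed copies in the genome and an uncertain level). Plekhg2 was not among the mRNAs with a crosslinked 3′ UTR site, and its annotated 3′ UTR of 444 bases holds neither TATTTAT nor ATTTA. Whether the altered Zfp36 locus bears on the Plekhg2 reads was not tested.

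At 6 h 39 genes (0.378% of those compared) were higher in ΔM and 84 (0.815%) were lower. At a 1.5-fold rule the numbers were 184 (1.79%) and 329 (3.19%). The middle 95% of all log2 ratios lay between -0.64 and 0.51, with a median of -0.03, so most genes differed little between the genotypes. The calls end without a gap: the higher genes nearest the limit were Fgr and Eno2 (both 1.0), beside 1700071M16Rik and 2900089D17Rik just under it (0.995 and 0.99). On the lower side Gpr132 and Gm6682 (both -1.0) were called, and Alox5 (-0.99) and Bub1 (-0.98) were not. In 3 of the higher genes the WT value, and in 3 of the lower genes the ΔM value, was under 1 FPKM.

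**Figure D1:**
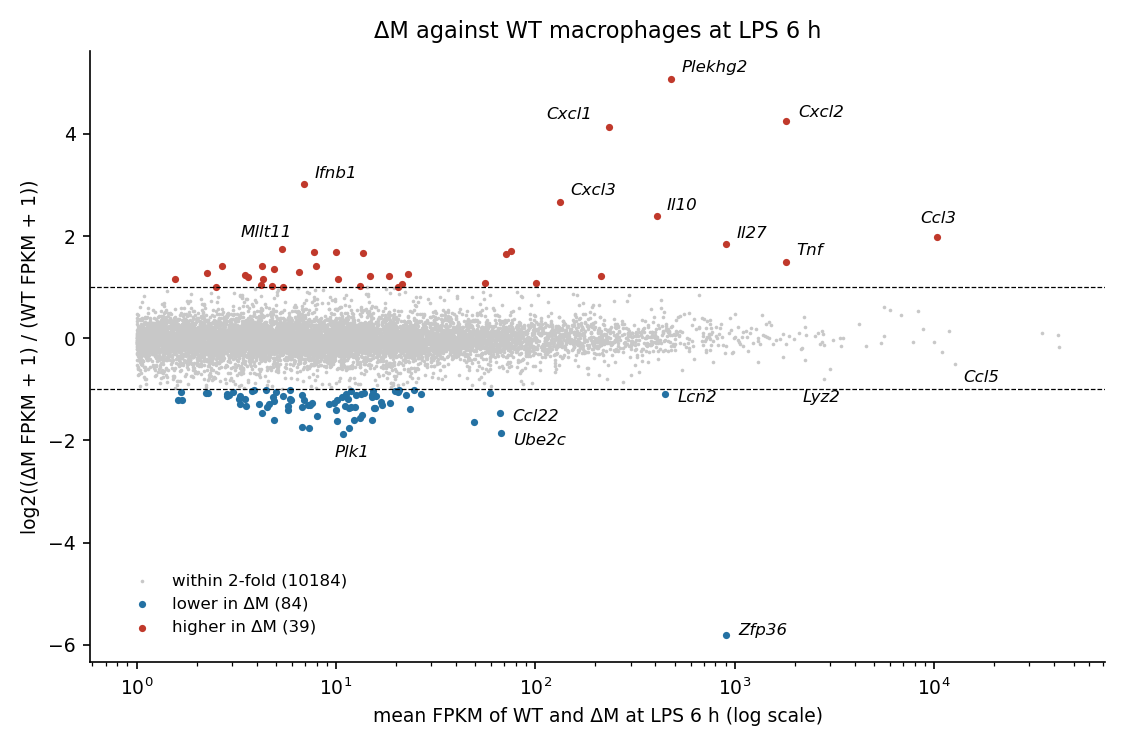
Mean FPKM of WT and ΔM at LPS 6 h (horizontal, log scale) against the log2 ratio of ΔM over WT with 1 FPKM added to each (vertical), 1 point per gene, for 10307 genes; dashed lines mark the 2-fold rule. The 39 higher genes reach into the highest means, with Ccl3, Cxcl2 and Tnf above a mean of 1000 FPKM. In WT alone Cxcl2 and Tnf stood below that level. Of the 84 lower genes 82 have a mean below 100 FPKM.

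The direction of the calls varied with the mean level of WT and ΔM. As that mean includes both groups, a large difference can itself move a gene from one class to another. Of 5665 genes with a mean of 1 to 10 FPKM, 17 were higher and 43 lower, and of 3805 genes with 10 to 100 FPKM, 12 were higher and 39 lower. Of 763 genes with 100 to 1000 FPKM, 7 were higher (0.917%) and 2 lower (0.262%), and of the 74 genes at 1000 FPKM and over, 3 were higher (4.05%) and 0 lower. These shares follow in part from the use of the mean. In the top class Cxcl2 and Tnf stood below 1000 FPKM in WT (179 and 940). In the third class Plekhg2, Cxcl1 and Cxcl3 stood below 100 FPKM in WT (26.5, 24.3 and 35.3). The 2 lower genes of the third class were Zfp36, which stood above 1000 FPKM in WT (1782), and Lcn2. Next to them came the membrane trafficking gene Ehd1 (-0.85) and the tubulins Tuba1b (-0.80) and Tubb5 (-0.72), none of which reached the rule. Among the most abundant mRNAs the lowest ratios were those of Lyz2, the macrophage lysozyme (3541 FPKM in WT and 2043 in ΔM, log2 ratio -0.79), Irg1, which makes itaconate (-0.59), the chemokine Ccl5 (-0.50), the translation factor Eif4g2 (-0.46) and the antiviral gene Rsad2 (-0.42).

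The chemokines that attract neutrophils had the highest median log2 ratio of the 30 lists (4.14). All 3 of its members that were compared were higher in ΔM, and the other 2 genes of the list, Cxcl5 and Ppbp, stayed under 1 FPKM in both genotypes. At 6 h Cxcl2 stood at 179 FPKM in WT and 3428 in ΔM (log2 ratio 4.25, 19.2-fold as a plain ratio). Cxcl1 stood at 24.3 and 444 FPKM (4.14), and Cxcl3 at 35.3 and 231 FPKM (2.67). All 3 mRNAs were at their highest at 3 h in both genotypes, and they came down further in WT than in ΔM. From 3 to 6 h Cxcl2 came down 8.73-fold in WT, from 1564 to 179 FPKM, and 1.65-fold in ΔM, from 5658 to 3428 FPKM. Cxcl1 came down 25.9-fold in WT and 3.58-fold in ΔM. Cxcl3, which was at 385 FPKM in WT and 352 in ΔM at 3 h, came down 10.9-fold in WT and 1.52-fold in ΔM.

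Of the 15 other chemokines compared, 1 was higher, 2 were lower and 12 were in between. Ccl3, which attracts monocytes and other leukocytes, was the most abundant of all higher mRNAs. At 6 h its level was 4184 FPKM in WT and 16518 in ΔM (log2 ratio 1.98), and it took 0.619% of all FPKM in WT and 2.37% in ΔM. Between 3 and 6 h Ccl3 declined in WT from 6938 to 4184 FPKM and went up in ΔM from 9118 to 16518 FPKM. Its close relative Ccl4 differed less, with 4422 and 6765 FPKM (0.61), as did the monocyte attractant Ccl2 with 4874 and 7200 FPKM (0.56). The lower ones were Ccl22, a ligand of CCR4, with 98.2 FPKM in WT and 35.2 in ΔM (-1.45), and the membrane-bound chemokine Cx3cl1 with 12.4 and 3.67 FPKM (-1.52). Both were at nearly equal levels without LPS (log2 ratios 0.14 and -0.05) and already apart at 3 h (-1.34 and -1.98). The interferon-induced ligands of CXCR3 were close to equal, with log2 ratios of -0.07 for Cxcl10, -0.33 for Cxcl9 and -0.23 for Cxcl11.

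**Figure D2:**
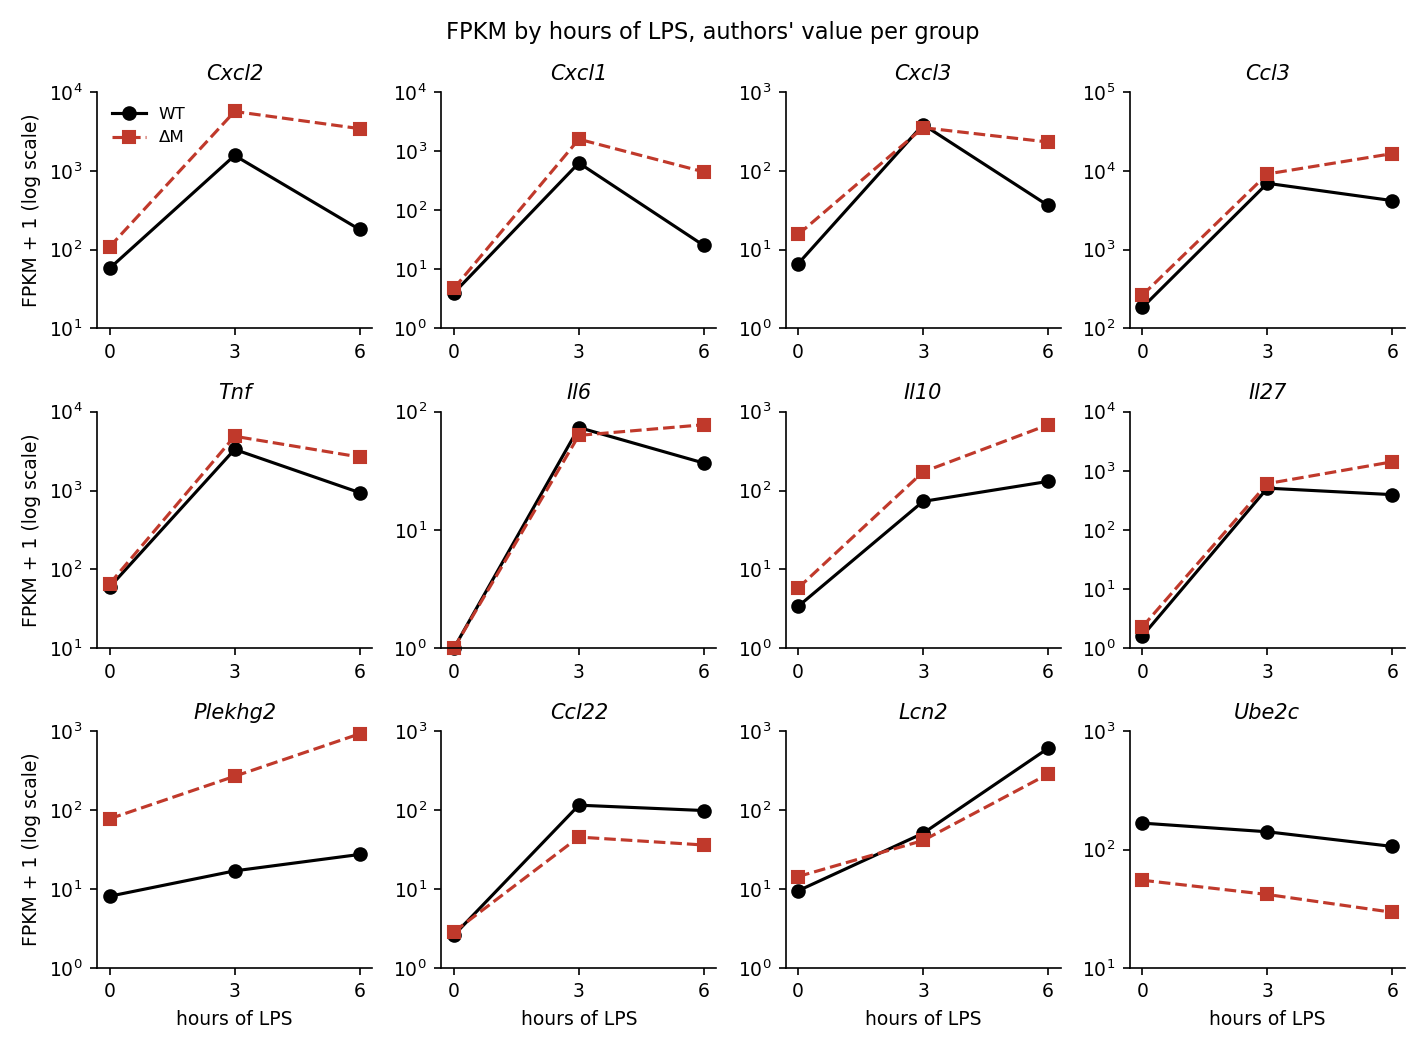
FPKM plus 1 (vertical, log scale, a separate range in each panel) at 0, 3 and 6 h of LPS (horizontal) in WT (black circles) and ΔM (red squares) for 12 genes, with the authors' single value per group and no error. In WT the neutrophil chemokines, Tnf, Il6, Ccl3 and Il27 come down from 3 to 6 h, whereas Il6, Ccl3 and Il27 go up in ΔM over the same interval. Il10 goes up in both genotypes.

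Of 16 inflammatory cytokines compared, 5 were higher, 1 was lower and 10 were in between, with a list median of 0.20 beside -0.03 for all genes. Tnf, which drives local inflammation and shock, stood at 939.8 FPKM in WT and 2661 in ΔM (log2 ratio 1.5). At 3 h it had been at 3322 and 4880 FPKM (0.55) and without LPS at 58.5 and 64.7 FPKM (0.14). Tnf thus came down 3.53-fold from 3 to 6 h in WT and 1.83-fold in ΔM. Il6, an inducer of the acute phase response, was listed at 0.00 in both genotypes without LPS, at 72.5 and 62.1 FPKM at 3 h and at 35.8 and 76.6 FPKM at 6 h (1.08). Il27, which encodes the p28 subunit of interleukin 27, stood at 394 and 1419 FPKM (1.85), whereas Ebi3, the gene of its partner subunit, stood at 662 and 429 FPKM (-0.62). The 2 subunits of that cytokine therefore lay on opposite sides of equality. Ifnb1, which encodes interferon beta, had the largest log2 ratio of the genes with 1 to 10 FPKM (3.01), from 0.75 FPKM in WT and 13.1 in ΔM, after 26.5 and 186 FPKM at 3 h. Osm, an interleukin 6 family cytokine, stood at 2.40 and 6.05 FPKM (1.05). Il18 was the lower one, with 31.0 FPKM in WT and 13.9 in ΔM (-1.10). Il1a lay just under the rule at 13.8 and 28.2 FPKM (0.98), while Il1b (0.23) and Il12b (0.16) were close to equal.

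Il10, the principal anti-inflammatory cytokine of macrophages, was among the mRNAs that were higher in ΔM and still accumulating in both genotypes. It went from 71.8 FPKM at 3 h to 129 FPKM at 6 h in WT, and from 171 to 681 FPKM in ΔM (log2 ratios 1.24 and 2.39). Of the 16 compared genes of the interleukin 10 axis and resolution, Il10 was the only one higher and Lcn2, an iron-sequestering antimicrobial protein, the only one lower. Socs1, which limits cytokine signalling, had a log2 ratio of 0.37, and the phosphatase gene Dusp1, which shuts off MAP kinases, 0.50.

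The TTP family and other genes of mRNA decay were compared as a group of their own. Zfp36l2 and Zfp36l1, which encode the paralogs of TTP with the same type of zinc fingers, were both higher in ΔM. Zfp36l2 stood at 5.98 FPKM in WT and 21.3 in ΔM (1.67), and Zfp36l1 at 13.6 and 29.4 FPKM (1.06). Both were far above these levels without LPS, Zfp36l2 at 119 and 123 FPKM and Zfp36l1 at 72.7 and 84.9 FPKM, and were lower at 3 h in both genotypes (6.01 and 11.96 FPKM for Zfp36l2, 19.1 and 25.6 FPKM for Zfp36l1). From 3 to 6 h Zfp36l2 went up 1.78-fold in ΔM. None of the 19 other genes for decay factors and AU-rich binding proteins reached the 2-fold rule, and their median log2 ratio was -0.06.

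The remaining higher genes were of several kinds. Of 18 matrix proteases and plasminogen system genes, Mmp9, a gelatinase (3.16 FPKM in WT and 12.4 in ΔM, 1.68), and Adamts4, an aggrecanase (1.80 and 5.47, 1.21), were higher. Of the eicosanoid genes, Pla2g7, which inactivates platelet-activating factor, was higher with 64.2 and 138 FPKM (1.09), and it overlaps 1700071M16Rik (0.995) on the opposite strand. Ptgs2, the inducible cyclooxygenase, had 469 and 849.9 FPKM (0.85) and stayed under the rule. Among the glycolysis and hypoxia genes 1 of 23 was called, Ndrg1, a stress-induced gene, with 33.8 FPKM in WT and 108 in ΔM (1.65). Its antisense neighbour Gm17035, which overlaps it on the other strand, had 34.8 and 116 FPKM (1.71), and since the counting is not stated to use strand the 2 cannot be told apart, nor can Pla2g7 and 1700071M16Rik. Cell surface and membrane genes included Ly6a (127 and 298 FPKM, 1.23), Gm5150 (13.2 and 32.8, 1.25) and the lectin Clec4n (1.89 and 6.67, 1.41). Others among the highest of their class were Mllt11 (1.94 and 8.84 FPKM, 1.74), the transcription factor Pou3f1 (3.86 and 12.04, 1.42), Tmem86a (1.01 and 4.38, 1.42) and S100a8, a calcium-binding protein of myeloid cells (4.21 and 15.9, 1.70). S100a9, whose product pairs with that of S100a8, stood at 0.37 and 0.40 FPKM.

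The largest group on the lower side was that of mitosis. Of 22 genes of mitosis and cytokinesis compared, 15 were lower in ΔM, 7 were in between and 0 were higher, and 21 of 22 were lower at the 1.5-fold rule, with a median log2 ratio of -1.30. Plk1, a mitotic kinase, stood at 17.6 FPKM in WT and 4.08 in ΔM (-1.87), and Ube2c, which loads ubiquitin for the anaphase-promoting complex, at 105 and 28.5 FPKM (-1.85). Ckap2l, a spindle protein, stood at 11.9 and 2.81 FPKM (-1.76). The mitotic cyclins Ccnb2 (18.5 and 4.75 FPKM, -1.76) and Ccnb1 (15.7 and 4.44, -1.62) and the chromosome-associated kinesin Kif4 (6.72 and 1.82, -1.45) belong to the same list. The proliferation marker Mki67 stood at 20.3 and 6.58 FPKM (-1.49), and the list sums to 359.8 FPKM in WT and 128 in ΔM. These differences were there before LPS: the list had a median log2 ratio of -1.37 at 0 h and -1.13 at 3 h. Racgap1 (-1.73), which acts in cytokinesis, and Cdca3 (-1.63), a trigger of mitotic entry, were lower as well and are not in the list. Of 25 DNA replication genes 3 were lower, namely cyclin A2 (Ccna2, -1.34) and the ribonucleotide reductase subunits Rrm1 and Rrm2 (-1.02 and -1.03), with a median of -0.32. With the median log2 ratio of all genes set to 0 only Ccna2 was still called, 1 gene of the list. Fewer dividing cells and less of these mRNAs in each cell cannot be told apart in bulk RNA, which holds for every gene here.

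Lower genes outside these lists had various roles. Icosl, a costimulatory ligand for T cells, stood at 7.87 FPKM in WT and 1.93 in ΔM (-1.60), after 39.3 and 17.0 FPKM at 3 h. Of the immediate early factors 1 of 23 was lower, Myc, with 8.78 and 2.70 FPKM (-1.40). Lcn2 had the highest level of the lower genes other than Zfp36, with 609 FPKM in WT and 287 in ΔM (-1.08). At 3 h it had stood at only 50.0 and 40.3 FPKM, so nearly all of its mRNA accumulated in the last 3 h. Hdc, which makes histamine, stood at 33.1 and 15.9 FPKM (-1.02), and Scd1, a fatty acid desaturase, at 15.2 and 6.33 FPKM (-1.15). Of 23 cholesterol synthesis genes 1 was lower (Cyp51, 21.0 and 9.77 FPKM, -1.03) and 10 were lower at the 1.5-fold rule, with a median of -0.55 beside -0.03 for all genes. With the median log2 ratio of all genes set to 0, Cyp51 and Hdc were no longer called.

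In several groups that characterise the LPS response no gene was called. As 0.378% of all genes were higher and 0.815% lower, a count of 0 in lists of this size is near the background. Of 33 interferon-stimulated genes 0 were called in either direction, with a median log2 ratio of 0.12, although the same genes had a median of 1.04 without LPS and 0.39 at 3 h. The 13 guanylate-binding and immunity-related GTPases had medians of 0.84, 0.80 and 0.14 at 0, 3 and 6 h. Among 24 NF-κB subunits and adaptors and 23 feedback inhibitors 0 were called, with medians of -0.09 in both lists. In the NF-κB list 3 genes were lower at the 1.5-fold rule, Traf1 (-0.91), Rela (-0.64) and Irak2 (-0.61), and in the inhibitor list Nfkbie (-0.79), Tnfaip3 (-0.70) and Dusp16 (-0.70). The 30 ribosomal protein genes, whose processed copies make single levels uncertain, had a median of 0.18 and 0 calls.

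**Figure D3:**
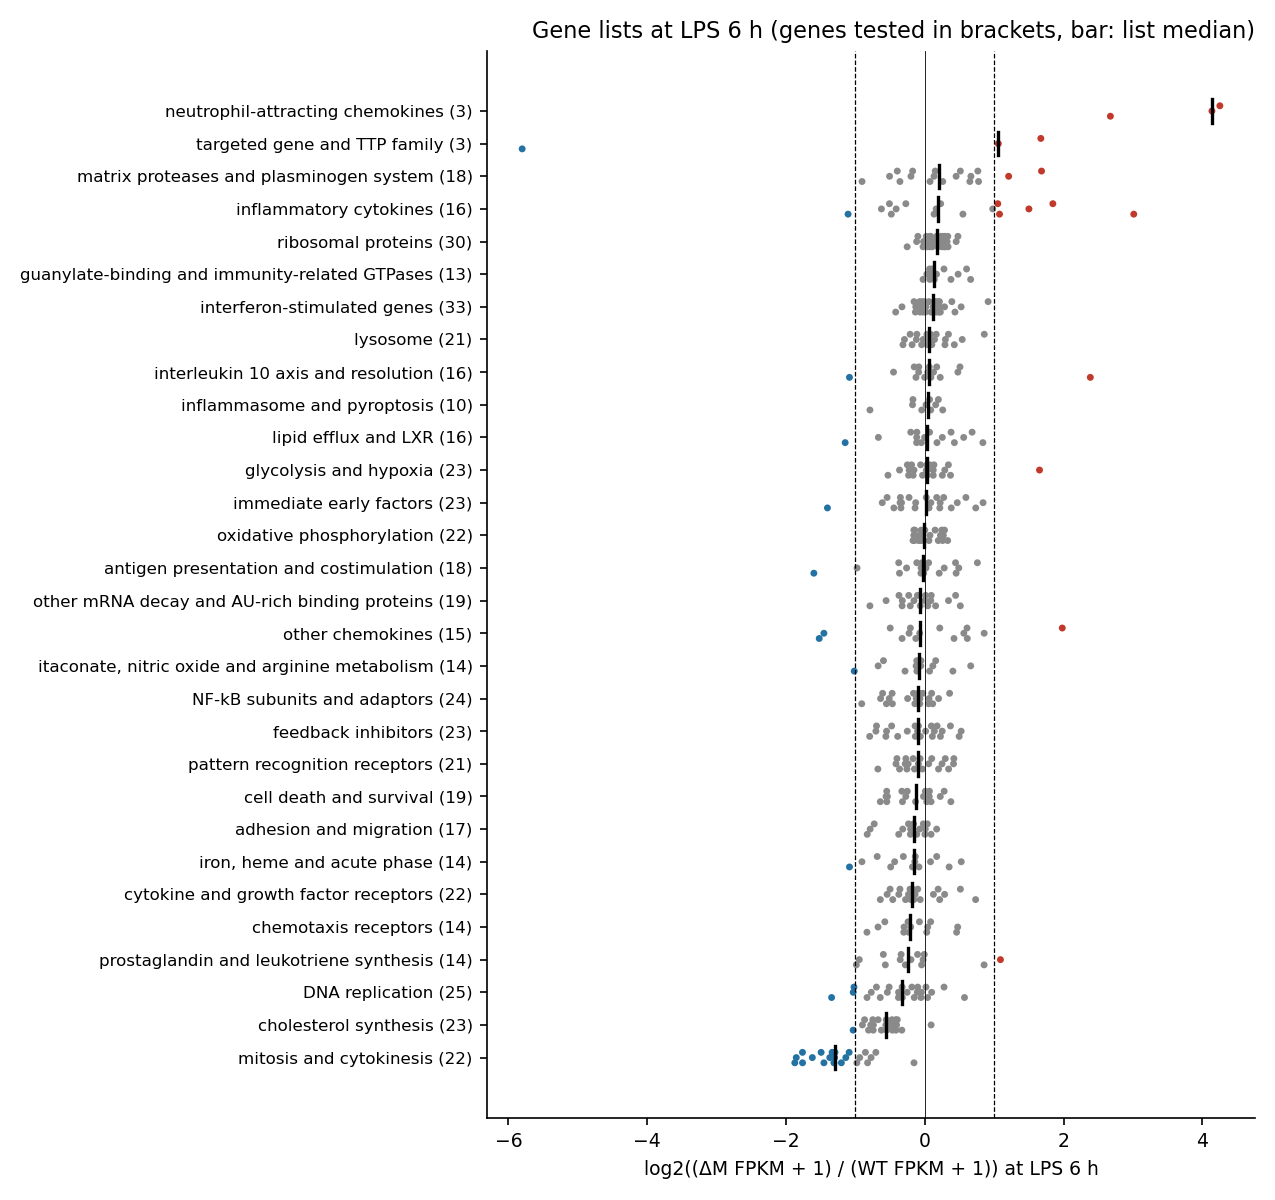
Log2 ratio of ΔM over WT at LPS 6 h (horizontal) for the compared members of 30 gene lists, 1 point per gene, with the number of genes in brackets and a black bar at each list's median; red and blue points passed the 2-fold rule (dashed lines). The neutrophil chemokines lie at the top with a median of 4.14, and mitosis and cytokinesis at the bottom with a median of -1.30.

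Genes were also grouped by their course over LPS, from the mean of both genotypes. Late genes were at least 2-fold above both 0 h and 3 h at 6 h, sustained genes were at least 2-fold above 0 h and within 2-fold of 3 h, early genes peaked at 3 h by at least 2-fold over both other times, and repressed genes were at least 2-fold below 0 h. Because the 6 h libraries define both the course and the difference, these counts only describe the calls. A class can also come from ΔM alone. Ndrg1 and Gm17035 count as sustained, but in WT they stood at 39.5 and 41.7 FPKM at 0 h and at 33.8 and 34.8 at 6 h. Of 95 early genes 6 (6.32%) were higher and 8 (8.42%) were lower in ΔM. Of 256 late genes 3 (1.17%) were higher and 5 (1.95%) were lower, and of 765 sustained genes 7 (0.915%) were higher and 5 (0.654%) were lower. The 2427 repressed genes held 9 of the higher and 39 of the lower genes, 46.4% of all 84. The early class held the highest shares in both directions.

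Among the 256 late genes the range of levels was wide. The 3 higher ones were Plekhg2, Il10 and Gm5150. The interferon-induced gene Ifi44 (37.7 FPKM in WT and 71.9 in ΔM, 0.91) came next, followed by Ms4a4a (0.88) and the adenosine receptor gene Adora3 (29.1 and 52.3 FPKM, 0.82). Plekhg2 and Il10 are late only through ΔM. From 3 to 6 h they rose 1.65-fold and 1.80-fold in WT, and 3.46-fold and 3.97-fold in ΔM. The 5 lower ones were Il18, Lcn2, Hdc, Ntng2 (18.5 and 8.17 FPKM, -1.09) and Dgat2, an enzyme of triglyceride synthesis (4.33 and 1.48 FPKM, -1.10). The haptoglobin gene Hp had 38.1 and 23.3 FPKM (-0.69), and the endothelial lipase gene Lipg 154 and 97.0 FPKM (-0.66). The most abundant late mRNA, Ccl5, stood at 14902 FPKM in WT and 10553 in ΔM (-0.50). Ccl7 stood at 1911 and 2560 FPKM (0.42). Several other abundant late mRNAs differed little. Il1rn, the interleukin 1 receptor antagonist, stood at 5548 FPKM in WT and 5227 in ΔM (-0.09), Saa3, an acute phase protein, at 3582 and 3242 FPKM (-0.14), Irf7, a regulator of interferon genes, at 3481 and 3519 FPKM (0.02), and Nos2, the inducible nitric oxide synthase, at 1396 and 1289 FPKM (-0.12).

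The genes called at 6 h were followed back to the separate libraries of 0 and 3 h. Of the 39 higher genes 12 were also at least 2-fold higher without LPS, where 0.999% of all genes were, and 17 were at 3 h, where 0.631% were. Of the 84 lower genes 49 were at least 2-fold lower without LPS (1.04% of all genes) and 55 at 3 h (0.922%). The median log2 ratio of the higher genes was 0.52, 0.89 and 1.29 at 0, 3 and 6 h, and that of the lower genes was -1.08, -1.17 and -1.22. As the genes were called at 6 h, the largest values at that time follow from the choice. The 9 genes higher at all 3 times were Plekhg2, Mmp9, Clec4n, Gm5150, Ly6a, Aif1, Sdc1, Pla2g7 and H2-M2, none of them a chemokine or cytokine. The 12 higher genes that were not 1.5-fold higher at either earlier time were Ccl3, Il27, Tnf, Il6, Osm, Ndrg1, Gm17035, Rab3a, Adamts4, Kcnk13, Zfp36l1 and Eno2. Of these Adamts4 lay on the lower side at 3 h (-0.68). Over all genes 3.46% were at least 1.5-fold higher without LPS and 3.41% at 3 h, and 4.21% and 4.22% were lower. On the lower side 41 genes were lower at all 3 times and 11 were not 1.5-fold lower at either earlier time, among them Lcn2 (which lay on the higher side without LPS, 0.60), Il18, Dgat2, Malt1 (22.2 FPKM in WT and 9.58 in ΔM, -1.13), which relays antigen receptor and lectin signals to NF-κB, and Adora2a (16.3 and 6.56 FPKM, -1.19), an adenosine receptor.

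**Figure D4:**
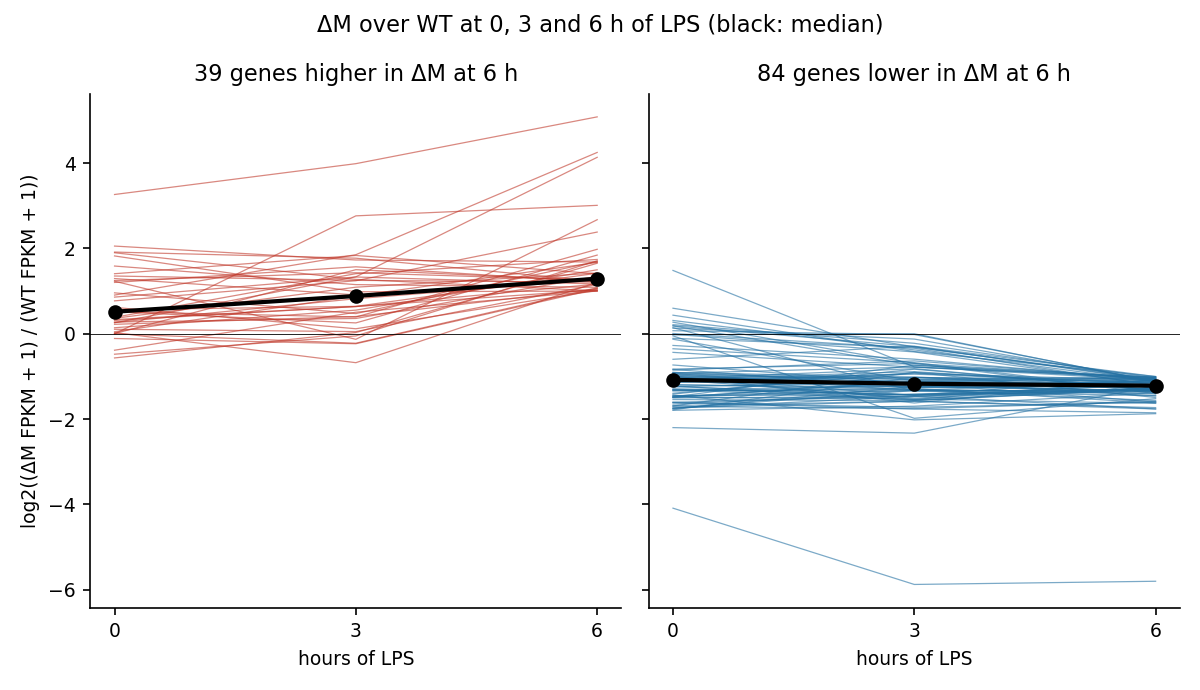
Log2 ratio of ΔM over WT (vertical) at 0, 3 and 6 h of LPS (horizontal) for the 39 genes higher and the 84 genes lower at 6 h, 1 line per gene, with the median in black. The median goes from 0.52 to 1.29 for the higher genes, several of which start near 0, and lies between -1.08 and -1.22 at all times for the lower genes.

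The loss of mRNA after actinomycin D was then compared at 6 h. The decay rate is the authors' slope of log2 FPKM over 0, 45 and 90 min of actinomycin D, and the half-life is -1 divided by that slope, called stable from 180 min. As FPKM is relative to the rest of each library, slopes and half-lives are relative too. A slope can therefore lie above 0, and stable does not mean without loss. Loss was called slower in ΔM when the half-life was at least 2-fold longer or the mRNA was stable in ΔM only. The 0 min cultures are the same libraries as in the FPKM comparison, so the measures are not independent. Of the 39 higher genes loss was slower in ΔM for 12 (30.8%) and faster for 0, beside 7.57% slower and 2.29% faster of the 10219 compared genes with a decay rate. The slope was less negative in ΔM than in WT for 26 of the 39 higher and 69 of the 84 lower genes, beside 58.9% of all genes, so the shift was not one of the higher genes alone. Another 25 of the 39 mRNAs were stable in both genotypes and 2 had half-lives within 2-fold. Of the 84 lower genes loss was slower for 11 (13.1%) and faster for 2.

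Tnf had the shortest WT half-life of the higher genes, 20.3 min, and 131 min in ΔM. The WT half-life was 45.3 min for Il10, 57.3 min for Cxcl1, 84.7 min for Cxcl2, 104 min for Cxcl3 and 106 min for Il6, and these 5 mRNAs were stable in ΔM. For Zfp36l2 it was 67.3 min in WT and 130 min in ΔM, just within 2-fold, and for Zfp36l1 128 min in WT and stable in ΔM. Rab3a (55.4 min), Osm (82.0 min), Gdf15 (98.1 min), Eno2 (107 min) and Gm26669 (130 min) completed the group with slower loss. Several of the highest genes are not in it: Ccl3, Il27, Mllt11 and Ifnb1 were listed as stable in both genotypes, as was Plekhg2. At 6 h in WT, however, Ifnb1 stood at only 0.75 FPKM and Mllt11 at 1.94, so their WT slopes are uncertain. Ifnb1 had come down 35.3-fold in WT between 3 and 6 h. For Ccl3 the slope over 90 min was -0.19 log2 units in WT and 0.39 in ΔM. The slopes thus lay 0.58 apart, although the half-life rule counts both as stable. Myc, on the lower side, had short half-lives in both genotypes, 23.9 min in WT and 28.6 min in ΔM.

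**Figure D5:**
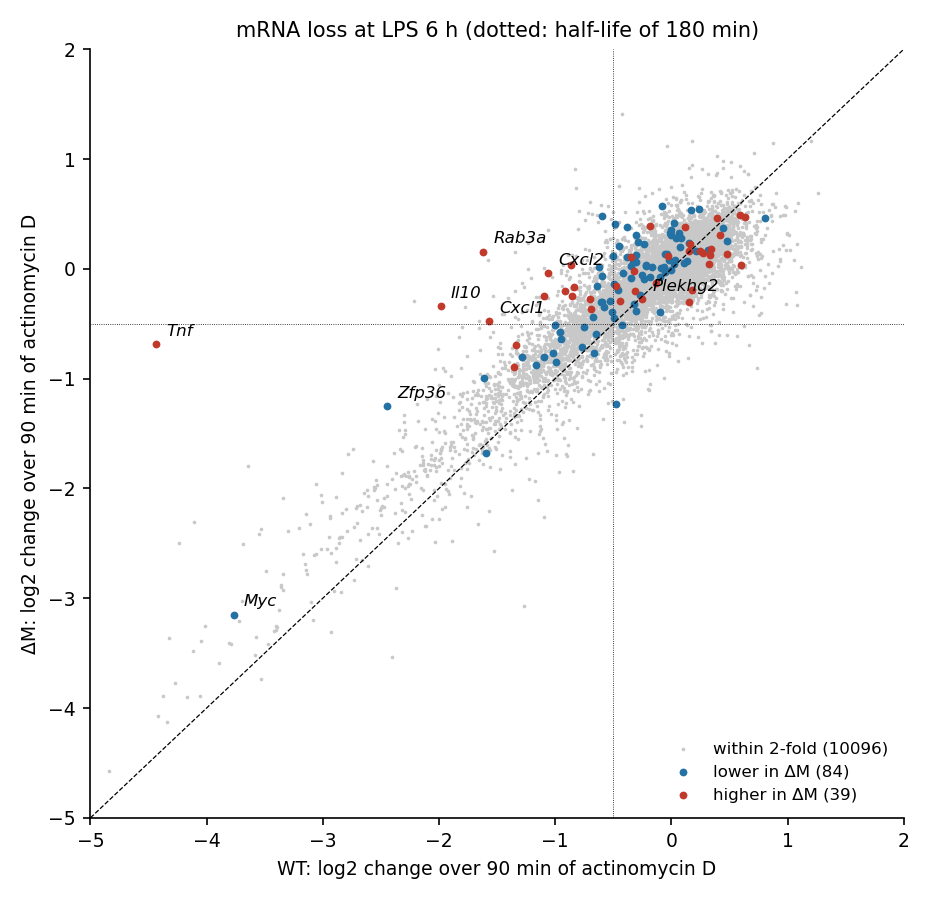
Change of log2 FPKM over 90 min of actinomycin D at LPS 6 h in WT (horizontal) and ΔM (vertical), 1 point per gene; the dashed line marks equality, the dotted lines a half-life of 180 min, and 2 genes lie outside the axes. Tnf, Il10, Cxcl1, Cxcl2 and Rab3a sit well above the line of equality, while 25 of the 39 higher genes lie in the upper right part, stable in both genotypes.

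The mRNAs to which TTP was crosslinked in the 3′ UTR at 6 h were set beside the calls, as counts without a test. Of 198 such mRNAs 11 (5.56%) were higher and 1, Zfp36 itself, was lower, beside 0.378% and 0.815% of all genes. Put the other way, 11 of the 39 higher genes (28.2%) had a crosslinked 3′ UTR, beside 1.92% of all genes compared. For 7 of these 11 (Cxcl2, Cxcl1, Il10, Tnf, Gdf15, Il6 and Eno2) loss was slower in ΔM, but the 11 had been picked as higher. Of all 198 loss was slower for 24 (12.1%). The share was 8.80% for mRNAs crosslinked in introns only and 7.45% for those crosslinked in neither. The 198 were abundant mRNAs, with a median level of 110.5 FPKM, beside 7.6 for genes crosslinked in neither 3′ UTRs nor introns. All genes are thus a background of lower level, and genes of like level were not compared. The median log2 ratio of the 198 was 0.08, and 117 of them (59.1%) lay above 0. Of 284 mRNAs crosslinked in introns only, 1 was higher and 1 lower, with a median of -0.06.

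Crosslinked mRNAs that did not reach the rule included Il1a (0.98) and Ptgs2 (0.85), whose sites are printed above, and Ehd1 (-0.85) on the lower side. Among those with slower loss in ΔM, Rusc2 (0.83), Ier3 (0.73), Ccl4 (0.61), Csf3 (0.55) and Il10ra (0.51) had higher levels in ΔM, whereas Tnfsf9 (-0.27), Ets2 (-0.35), Ralgds (-0.45) and the inflammasome sensor Nlrp3 (-0.79) had lower ones. Nearer to equality, Cep170, Mxd1, Cd69 and Inpp4a lay on the higher side, and Cpeb4, Etv6, Slfn5 and Rbm33 on the lower side. Slower loss at this time and a higher level did not always go together. Nlrp3 stood at 66.7 FPKM in WT and 38.2 in ΔM, with a half-life of 132 min in WT and stable in ΔM.

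The letters TATTTAT were searched in the longest annotated 3′ UTR of each gene on the sense strand (GENCODE M1, NCBIM37). They were present in 24 of 36 higher genes (66.7%), in 19 of 80 lower genes (23.8%) and in 2489 of all 9013 genes with an annotated 3′ UTR (27.6%). The 3′ UTRs of the higher genes were not longer, with a median of 861 bases beside 1157 for all genes. Among 3′ UTRs of 500 to 1000 bases 8 of 9 higher genes held the motif, beside 18.2% of all genes of that length, and among those of 1000 to 2000 bases 11 of 15, beside 30.5%. Among shorter ones it was 5 of 11, beside 7.08%, and of 2000 bases and over 0 of 1, beside 49.7%. All 11 higher genes with slower loss and an annotated 3′ UTR held it, as did 13 of the other 25 (52.0%). Eno2 had 10 copies, Tnf 8, Cxcl2 7, Cxcl1 6 and Mllt11 6. The shorter ATTTA, which lies within TATTTAT, was present in 77.8% of the higher, 70.0% of the lower and 67.6% of all genes, and the longer TTATTTATT in 33.3%, 7.5% and 7.17%.

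The cultures carried the mRNAs of macrophages in both genotypes. All 11 macrophage markers in the table were compared and their summed level was 8913 FPKM in WT and 7666 in ΔM, with Cd68 at 2019 and 2175 FPKM and Adgre1 at 179 and 143 FPKM. The lower sum in ΔM comes from Lyz2 (3541 and 2043 FPKM). Of the 11 markers 5 had a log2 ratio above 0, with a range from -0.79 to 0.84 and a median of -0.14. The 10 neutrophil markers sum to 302 FPKM in WT and 293 in ΔM, nearly all of it Csf3r (296 and 276 FPKM). Beside the higher S100a8, the defining neutrophil genes Ly6g, Elane, Mpo, Ltf, Camp and Cxcr2 were between 0.00 and 0.19 FPKM in both genotypes. Ighm, the immunoglobulin M heavy chain gene, was lower in ΔM with 23.4 and 7.09 FPKM (-1.59), and the B cell markers sum to 34.2 and 15.7 FPKM, while Cd79a, Ms4a1 and Pax5 were at 0.05 FPKM or below in both genotypes. Most of the difference between these sums is that of Ighm. Of the 3 B cell markers compared, 1 lay on the higher side (0.50). T cell, natural killer, erythroid and mast cell markers in the table summed to less than 1 FPKM in each group, fibroblast markers to 3.75 and 3.16 FPKM, and dendritic cell markers to 4.21 and 3.75 FPKM. Across WT and ΔM at 0, 3 and 6 h between 10243 and 11490 genes had at least 1 FPKM, and the 100 most abundant genes took 51.2% to 53.9% of all FPKM.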

How the data were processed

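Per the submitters' processing notes and the methods of the study, poly(A) mRNA libraries were mapped with GSNAP to mm10 and quantified with Mix², and expression was tested with DESeq2. The authors deposited FPKM values, 1 per group and LPS time for 21951 genes, and decay rates as slopes of log2 FPKM per min for 12558 genes. How the replicates were combined is not given in the sources used here. The table also holds 6 columns of the authors' fold changes and FDRs, which were not used. FPKM is relative to the rest of each library.

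Genes with a mean FPKM of at least 1 were kept and log2((ΔM + 1)/(WT + 1)) was taken for each (Python 3.11.15, numpy 2.4.6, pandas 2.3.3). The script was checked on simulated data with large planted changes in genes well above the FPKM filter. That check does not cover changes near the 2-fold limit or in genes of low level. With 1 value per group no test was run, and precision from depth is unknown. Members, lists (38, with markers) and rules were chosen with earlier results of these data known. Genes named were Zfp36, the 5 highest and 5 lowest log2 ratios in each FPKM class, and called list members (up to 4 a list). Others were named after their values were seen, as neighbours of a limit, as members of a count, as examples of late or crosslinked genes, or to set beside a called gene. TTP sites come from the study's crosslinking lists, with 3′ UTRs from GENCODE M1 (mm9). Gene positions are RefSeq GRCm38.p6, the build of mm10, found for 116 of 123 called genes.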

Additional observations from a re-analysis of the deposited data

How the results depend on the processing

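No paired analysis was possible because the tables hold 1 value per group, and for the same reason replicates could not be left out in turn. Of 112 recomputed counts 82 stayed within 1.5 times. The numbers of genes higher and lower (39 and 84) became 74 and 167 with a pseudocount of 0.1, 18 and 21 with 5, 184 and 329 at a 1.5-fold rule and 6 and 1 at a 4-fold rule, and were 44 and 77 with the median log2 ratio of all genes set to 0. With a pseudocount of 0.1, the class of 1 to 10 FPKM held 48 higher and 124 lower genes, the higher genes included 9 late, 21 repressed and 27 of no class of LPS course, and the lower genes 8 late, 12 sustained, 15 early and 93 repressed. With it the lists gained calls: 1 higher in lipid efflux, and lower 1 chemotaxis receptor, 1 adhesion, 2 antigen presentation, 2 prostaglandin, 2 iron and acute phase and 2 cholesterol synthesis genes. Setting the median to 0 left 0 lower genes in cholesterol synthesis, 0 in itaconate and arginine metabolism and 1 in DNA replication. The motif TTATTTATT was held by 12 higher and 6 lower genes, and ATTTA by 56 lower genes. Of 126 recomputed log2 ratios of 63 named genes 124 moved by less than 1.5-fold, and with a pseudocount of 0.1 Ifnb1 moved to 3.96 and Tmem86a to 2.01. None changed sign.

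The numbers of calls, most of them in genes under 100 FPKM, thus depend on the pseudocount and the fold rule. Depth and replicate spread are unknown from the FPKM values used, so a log2 ratio near 1 in a gene of a few FPKM has no known error here. The authors' own FDRs were not used. Half-lives rest on 3 times up to 90 min.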

Other observations

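With 0.378% of all genes called higher and 0.815% lower at 6 h, lists of receptors and of cell maintenance genes would hold about as few calls as they did. Of 22 cytokine and growth factor receptors, 21 pattern recognition receptors and 14 chemotaxis receptors 0 were called, with median log2 ratios of -0.18, -0.09 and -0.22. Il15ra, which presents interleukin 15 to other cells, stood at 186 FPKM in WT and 309.9 in ΔM (0.73). Tlr2, the receptor for bacterial lipopeptides, stood at 68.1 and 42.3 FPKM (-0.68), beside Tlr4, the LPS receptor, at 19.1 and 24.5 FPKM (0.34). Both lipopeptide and LPS receptors thus stayed within 2-fold, on opposite sides of equality.

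Of 18 antigen presentation genes only Icosl was called. The checkpoint ligand gene Cd274 stood at 315 and 534 FPKM (0.76) and the maturation marker Cd83 at 16.0 and 7.64 FPKM (-0.98). In the adhesion list, with 0 of 17 called, the integrin genes Itga4 (108 and 60.5 FPKM, -0.83) and Itgav (44.1 and 26.2 FPKM, -0.73) lay on the lower side. Of 16 lipid efflux and LXR genes only Scd1 was called, while Apoe (132 and 213 FPKM, 0.68) and the LXR gene Nr1h3 (2.75 and 5.70 FPKM, 0.84) lay on the higher side. The lysosome (21 genes), cell death (19), inflammasome (10) and oxidative phosphorylation (22) lists had 0 calls and medians of 0.06, -0.13, 0.04 and -0.01.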
